A study of Mus musculus with 4 samples.

Results

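The genes of the interleukin 1 (IL-1) and interleukin 33 (IL-33) system were described in single-cell RNA libraries of skeletal muscle from a mouse model of Duchenne muscular dystrophy. The 8 genes were the ligands Il1a, Il1b and Il33, the antagonist Il1rn, the signalling receptors Il1r1 and Il1rl1, the decoy receptor Il1r2 and the shared accessory chain Il1rap. They were taken by gene symbol from the 32286 features of each library. All 8 had counts in 3 of the 4 libraries, and 7 had counts in the remaining library, the vehicle kit preparation, where Il1a had none.

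IL-1 alpha and IL-1 beta are inflammatory cytokines made mainly by myeloid cells, and both signal through IL1R1 paired with IL1RAP. The antagonist encoded by Il1rn occupies IL1R1 without signalling, and the decoy IL1R2 binds IL-1 but has no signalling domain. IL-33 is a nuclear alarmin of stromal and barrier cells that is released on damage and signals through IL1RL1 (also called ST2), again with IL1RAP. In muscle, the mesenchymal fibro-adipogenic progenitors (FAPs) are a known source of IL-33, and regulatory T cells and group 2 innate lymphoid cells are known to carry ST2.

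LNP-CRISPR denotes lipid nanoparticles that deliver the gene-cutting system CRISPR, whose enzyme Cas9 was counted here as RNA, and the study asked which muscle cells take it up. There were 4 groups of 1 library each, from muscle given vehicle or LNP-CRISPR and prepared in either of 2 ways. The bulk preparation was a single-cell suspension of muscle, and the kit preparation used a kit that isolates satellite cells, the resident stem cells of muscle fibres. All 4 groups carried the dystrophy model, but its allele, the strain, age, dose, time of sampling and number of animals are not given in the sources used here.

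A unique molecular identifier (UMI) stands for 1 counted RNA molecule, and levels are given as UMIs of a gene summed over the cells of a class per 1000000 nuclear-encoded UMIs (CPM). The libraries held 25921795 to 40666916 UMIs in 1305 to 2207 barcodes, and 1149 to 1899 cells per library were kept, 5651 in all. Pairs of libraries shared 0 to 3 cell barcodes. Cas9 had 36382 UMIs in LNP-CRISPR bulk, 10351 in LNP-CRISPR kit and 0 in both vehicle libraries. Cells were clustered without the 8 genes and named from marker lists, so that each name ends in "-like". With 1 library per group no test between treatments was possible. The 95% intervals in parentheses cover counting error within a library only, and a difference between libraries may come from the animal or the preparation as much as from the treatment.

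The genes lie in the GRCm38 assembly at chr2:129299610-129309972 (Il1a, minus strand), chr2:129364570-129371139 (Il1b, minus strand), chr2:24336853-24351494 (Il1rn), chr1:40225080-40317257 (Il1r1), chr1:40074079-40125231 (Il1r2), chr16:26581704-26730117 (Il1rap), chr19:29925114-29960718 (Il33) and chr1:40429570-40465415 (Il1rl1). The genes of the receptors Il1r1, Il1r2 and Il1rl1 thus sit on 1 stretch of chromosome 1. The annotation gives all but Il1a and Il1b several transcripts with different starts or ends, and gene counts do not separate them, so membrane and soluble forms of ST2 are counted together. Antisense genes overlap 4 of the genes, and whether the counting used strand is not given in the sources used here. On the same strand, Gm38070 overlaps Il1r1 and Gm37347 overlaps Il1r2. Beside 8339 Il1b UMIs the antisense gene Il1bos had 12, and beside 141 Il1a UMIs the antisense gene Gm14023 had 48.

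The stretch of 250 bases before the annotated start is shown for Il1b and for the starts listed first for Il1rn and Il1rl1, because the myeloid results turn on the first pair and the stromal results on Il1rl1. Capitals mark the AP-1 motif TGANTCA in Il1rn and the C/EBP motif TTGCNNAA in Il1rl1, and Il1b held neither. The other listed starts of Il1rn and Il1rl1 held neither motif. Which start these cells used was not measured, so the marked motifs are not tied to the results. The sequences are from RefSeq (GRCm38.p6), written 5′ to 3′ on the strand of the gene, for chr2:129371140-129371389, chr2:24336610-24336859 and chr1:40429320-40429569.
Il1b: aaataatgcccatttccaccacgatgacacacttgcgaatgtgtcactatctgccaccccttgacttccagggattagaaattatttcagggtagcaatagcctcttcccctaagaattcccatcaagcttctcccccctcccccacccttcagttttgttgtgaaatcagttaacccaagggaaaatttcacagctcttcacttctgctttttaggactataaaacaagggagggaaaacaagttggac
Il1rn: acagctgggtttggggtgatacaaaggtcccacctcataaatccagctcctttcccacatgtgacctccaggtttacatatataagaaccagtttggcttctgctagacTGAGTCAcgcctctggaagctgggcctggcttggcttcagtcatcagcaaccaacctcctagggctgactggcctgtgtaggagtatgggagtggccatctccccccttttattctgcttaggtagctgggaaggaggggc
Il1rl1: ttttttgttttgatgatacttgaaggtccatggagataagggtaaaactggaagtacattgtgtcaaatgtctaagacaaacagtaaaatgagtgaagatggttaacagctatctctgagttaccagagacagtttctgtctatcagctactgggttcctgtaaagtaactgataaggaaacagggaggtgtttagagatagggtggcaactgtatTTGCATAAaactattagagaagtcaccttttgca

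Both strands of the 13 listed starts of the 8 genes, from 250 bases before to 50 bases after the start, were searched, and TGANTCA reads the same on both strands. TGANTCA was present in 2 of the 13, at positions -12 to -6 of Il1a and -141 to -135 of Il1rn, and in 7.81% of 32851 mouse promoters of that length. TTGCNNAA was present in 3 of the 13, in the first starts of Il1r1 and Il1rl1 and the second start of Il33, and in 10.8% of all promoters. The NF-kB motif was in 0 of the 13 and in 5.805% of all promoters. These are matches of letters, not measured binding.

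In bulk muscle, Il1a, Il1b and Il1rn were highest in myeloid classes, and most UMIs of Il33, Il1r1 and Il1rl1 lay in FAP-like cells. FAP-like cells held 97.8% of the Il33 UMIs of vehicle bulk and 91.9% of those of LNP-CRISPR bulk. For Il1rl1 these shares were 98.7% and 90.1%, and for Il1r1 96.1% and 92.7%. FAP-like cells were 55.4% and 36.8% of all cells in these libraries and held 70.4% and 61.3% of all nuclear-encoded UMIs, so the Il33, Il1r1 and Il1rl1 shares exceeded the share of RNA in both.

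**Figure D1:**
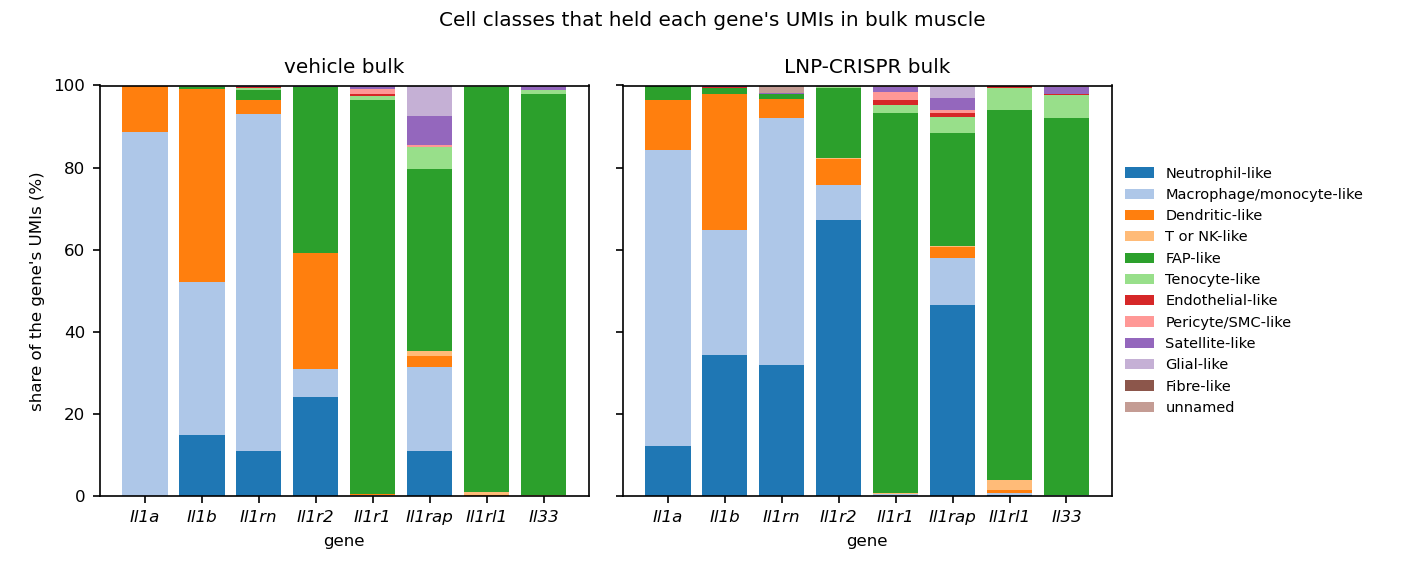
Share of each gene's UMIs (vertical axis, percent) held by each cell class (colours) in vehicle bulk and LNP-CRISPR bulk, 1 bar per gene. FAP-like cells fill most of the bars of Il1r1, Il1rl1 and Il33 in both libraries, and the neutrophil-like share of Il1r2 is 24.1% in vehicle bulk and 67.2% in LNP-CRISPR bulk.

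For the myeloid genes the makeup of the source differed between the 2 bulk libraries. Neutrophil-like cells, 33 in vehicle bulk and 158 in LNP-CRISPR bulk, held 14.9% and 34.4% of the Il1b UMIs. Cluster 11, led by S100a9 and S100a8, made up 17 and 91 of these cells and the shallower cluster 17 the other 16 and 67. Neutrophil-like cells held 10.9% and 31.9% of the Il1rn UMIs and 24.1% and 67.2% of the Il1r2 UMIs. Over all kept cells Il1b was at 93.4 CPM in vehicle bulk and 210.2 CPM in LNP-CRISPR bulk, and Il1rn was at 30.1 and 144 CPM. These whole-library values join the level within each class with the number of cells of that class, and the next values keep the classes apart.

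Il1b, the gene of IL-1 beta, stood highest in neutrophil-like cells, then in dendritic-like and macrophage or monocyte-like cells, an order without overlapping intervals in either bulk library. In neutrophil-like cells it was at 5612 CPM (5102–6160) in vehicle bulk and 4231 CPM (4035–4433) in LNP-CRISPR bulk. In dendritic-like cells the levels were 1242 CPM (1178–1309) and 1730 CPM (1649–1815), and in macrophage or monocyte-like cells they were 374 CPM (352–397) and 562 CPM (534–590). Thus the neutrophil-like level was lower in LNP-CRISPR bulk, while the other 2 classes were higher there, by ratios of 1.39 (1.297–1.496) and 1.501 (1.39–1.62). The vehicle neutrophil-like class had fewer than the 50 cells required for a ratio. Neutrophil-like cells were shallow, with medians of 1637 and 2451 UMIs per cell. In vehicle bulk 149 of their 443 Il1b UMIs were in 1 cell, and the top 3 cells held 48.5%, so that level rests on few cells. The highest LNP-CRISPR cell held 92 of 1757.

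The RNA was uneven among cells of 1 class. In macrophage or monocyte-like cells an Il1b UMI was found in 40.8% (vehicle) and 48.9% (LNP-CRISPR) of cells, and the top 10% of cells held 71.7% and 77.2% of the Il1b UMIs. A single LNP-CRISPR cell held 438 of 1556, and without the highest cell of each library the levels were 328 and 408 CPM. In neutrophil-like cells the gene was present in 97.0% (32 of 33) and 91.1% (144 of 158) of cells. In dendritic-like cells it was present in 43 of 61 vehicle and 33 of 57 LNP-CRISPR cells, a smaller share where the level was higher. One vehicle dendritic-like cell held 411 of 1399 UMIs, and the ratio ran from 1.17 to 1.68 over the settings tried. Satellite-like cells of the same libraries had an Il1b UMI in 6.38% and 18.9% of cells at median depths of 35926 and 24201 UMIs. In the kit libraries they had 44 and 50 Il1b UMIs, in 23 of 517 vehicle and 35 of 591 LNP-CRISPR cells. Il1rn had 0 and 1 UMI there. The part of free RNA in these shares was not tested.

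Il1rn, the gene of the IL-1 receptor antagonist, was higher in LNP-CRISPR bulk in each of the 3 myeloid classes. Neutrophil-like cells had 1318 CPM (1077–1596) in vehicle bulk and 2685 CPM (2530–2847) in LNP-CRISPR bulk. Macrophage or monocyte-like cells had 267 CPM (248–286) and 759 CPM (727–792), a ratio of 2.85 (2.62–3.09). Dendritic-like cells had 29.3 CPM (20.2–41.2) and 169 CPM (144–197), a ratio of 5.76 (3.95–8.65). More cells carried it as well. Among macrophage or monocyte-like cells, 55.2% had an Il1rn UMI in vehicle bulk and 69.5% in LNP-CRISPR bulk. Among dendritic-like cells 8 of 61 and 23 of 57 did.

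The macrophage difference was present in both clusters of the class. Cluster 4 was led by the complement genes C1qa, C1qb and C1qc, with Mrc1, Arg1 and Trem2 also among its leading genes. In it Il1rn was at 313 CPM (290–338) in vehicle and 829 CPM (789–870) in LNP-CRISPR cells. In cluster 5, led by the monocyte genes Chil3 and Ly6c2, it was at 128 CPM (104–157) and 586 CPM (534–641), a ratio of 4.57. Neutrophil-like cluster 11 of LNP-CRISPR bulk had Il1rn at 3069 CPM (2888–3259) and cluster 17 at 743 CPM (553–977), while vehicle bulk had under 20 cells in each. Summed over its 8 markers, the neutrophil list was at 268.5 CPM in vehicle and 406 CPM in LNP-CRISPR macrophage or monocyte-like cells, with 7 of the 8 present in both. In dendritic-like cells it was at 37.3 CPM (5 of 8 present) and 102.3 CPM (6 of 8 present). The list of 12 macrophage and monocyte markers was at 3603 and 7079 CPM in dendritic-like cells, with 12 and 11 present, and at 18043 and 15945.5 CPM in the macrophage or monocyte-like cells. The part of these in the Il1rn difference was not tested.

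Il1rn UMIs therefore came closer to or passed Il1b UMIs in LNP-CRISPR bulk. A UMI is not scaled by transcript length and capture may differ between genes, so the count of Il1rn per Il1b UMI is used only to compare libraries. It was 0.713 (0.650–0.782) in vehicle and 1.35 (1.27–1.44) in LNP-CRISPR macrophage or monocyte-like cells. In neutrophil-like cells it was 0.235 (0.188–0.291) and 0.635 (0.588–0.684), and in dendritic-like cells 0.0236 (0.0162–0.0333) and 0.0976 (0.0827–0.115). In all 3 classes the intervals of the libraries were apart.

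Ligand and antagonist were often found in the same cell. Of the macrophage or monocyte-like cells, 41 of 201 in vehicle bulk and 64 of 174 in LNP-CRISPR bulk carried UMIs of both Il1b and Il1rn. Among vehicle cells with Il1b, 50% had Il1rn, against 58.8% of the cells without Il1b. Among LNP-CRISPR cells these shares were 75.3% and 64.0%. In neutrophil-like cells 19 of 33 and 101 of 158 carried both, and in dendritic-like cells 7 of 61 and 17 of 57.

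**Figure D2:**
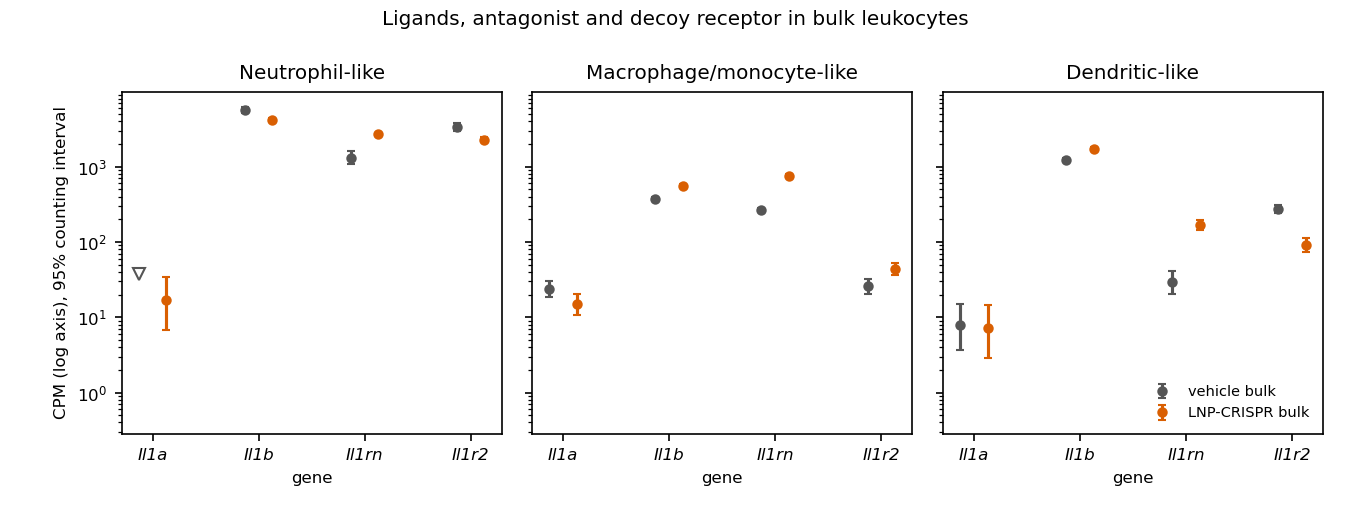
Levels of Il1a, Il1b, Il1rn and Il1r2 (CPM, log axis) in neutrophil-like, macrophage or monocyte-like and dendritic-like cells of vehicle bulk (grey) and LNP-CRISPR bulk (orange). Points are class totals of 1 library, bars are 95% counting intervals, and the open triangle marks the level of 3 counts where no UMI was found. Il1rn is higher in LNP-CRISPR bulk in all 3 classes, and Il1r2 is lower there in neutrophil-like and dendritic-like cells and higher in macrophage or monocyte-like cells.

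Il1a, the gene of IL-1 alpha, was scarce, with 141 UMIs in 38 cells of all libraries. Macrophage or monocyte-like cells had 24.0 CPM (18.8–30.3) in vehicle bulk and 14.8 CPM (10.6–20.1) in LNP-CRISPR bulk. In vehicle bulk 47 of the 71 UMIs were in 1 cell, and without the highest cell of each library the levels were 8.17 and 10.2 CPM. The order of the libraries thus rests on that cell.

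The same low numbers apply to IL-1 genes outside the myeloid classes. In FAP-like cells Il1b was at 0.891 CPM (20 UMIs) in vehicle bulk and 4.70 CPM (70 UMIs) in LNP-CRISPR bulk, a ratio of 5.27 (3.17–9.15), and Il1rn was at 0.98 and 2.68 CPM, a ratio of 2.74 (1.59–4.84). Tenocyte-like cells had Il1b at 1.39 and 2.44 CPM, and satellite-like cells of the bulk libraries at 1.92 and 6.83 CPM, so the FAP-like level was below both in vehicle bulk and between them in LNP-CRISPR bulk. Il1rn was at 2.32 and 1.62 CPM in tenocyte-like and at 1.44 and 3.41 CPM in satellite-like cells. The Il1b ratio was 1.01 when called doublets were kept, and the summed neutrophil list was at 19.0 and 66.3 CPM in FAP-like cells (7 of 8 present). The part of neutrophil RNA in the FAP-like values was not tested.

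Il1r2, the decoy receptor gene, was highest in neutrophil-like cells, at 3332 CPM (2941–3760) in vehicle bulk and 2297 CPM (2154–2448) in LNP-CRISPR bulk. In dendritic-like cells it was at 273.5 CPM (244–306) and 91.1 CPM (73.1–112), a ratio of 0.333 (0.260–0.423), and UMIs were in 32 of 61 and 19 of 57 cells. In macrophage or monocyte-like cells it was at 25.7 CPM (20.3–32.2) and 44.0 CPM (36.6–52.6), a ratio of 1.71 (1.27–2.31). With the stricter cell filter (at least 500 genes and at most 10% mitochondrial UMIs) the ratio of the macrophage or monocyte-like class was 0.598. No dendritic-like class was formed there, and 1 of the 2 macrophage or monocyte-like clusters had H2-Aa, Cd74 and the dendritic marker Cd209a among its leading genes, so the 2 ratios are of different mixes of cells. FAP-like cells had 19.7 CPM (17.9–21.6) and 16.2 CPM (14.2–18.3), with a UMI in 31.6% and 32.2% of cells, whereas tenocyte-like cells, at medians of 26307 and 20201 UMIs against 29076.5 and 30250, had a UMI in 0 of 81 cells, which allows a share of cells with a UMI of up to 3.70%, and in 4 of 111.

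In neutrophil-like cells decoy and ligand were together. UMIs of both Il1b and Il1r2 were in 26 of 33 vehicle and 121 of 158 LNP-CRISPR cells, while Il1r1 had 0 and 1 UMI in the class. Dendritic-like cells carried both in 27 of 61 and 16 of 57 cells.

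Il1r1, the signalling receptor of IL-1, marked stromal and vascular wall cells. FAP-like cells had 221 CPM (215–228) in vehicle bulk and 230.1 CPM (222–238) in LNP-CRISPR bulk, a ratio of 1.04 (0.995–1.09), and 87.3% and 87.7% of the cells had a UMI. In the kit libraries the highest class was pericyte or smooth muscle-like, at 172.5 CPM (157–189) in vehicle and 253 CPM (240.1–267) in LNP-CRISPR cells, a ratio of 1.47 (1.32–1.64). The same class in bulk, with 26 and 25 cells, had 166 CPM (129–210.1) and 186 CPM (147–233), whose intervals overlap. The 36 endothelial-like cells of LNP-CRISPR bulk had 196 CPM (143–263), which overlaps the level of pericyte or smooth muscle-like cells.

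Satellite-like cells had Il1r1 at a lower level. With the kit it was at 21.7 CPM (19.6–23.8) in vehicle and 23.5 CPM (21.7–25.5) in LNP-CRISPR cells, and a UMI was in 32.9% and 40.3% of the cells. Their Il1r2 had 4 and 10 UMIs in the class. Glial-like cells of the kit libraries had Il1r1 at 7.59 CPM (3.79–13.6) and 13.2 CPM (9.49–17.9), and fibre-like cells had 8 and 2 UMIs at median depths of 1664 and 1652 UMIs per cell.

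Il1rap, the accessory chain that both receptors need, had UMIs in most classes, at low level outside neutrophil-like cells. Neutrophil-like cells had 557 CPM (405–748) in vehicle bulk and 498.5 CPM (433–571) in LNP-CRISPR bulk, and the intervals overlap. In the kit libraries glial-like cells had the highest level, at 49.0 CPM (38.3–61.8) and 55.5 CPM (47.5–64.4). FAP-like cells of LNP-CRISPR bulk had 8.18 CPM (6.80–9.77), and their ratio to vehicle was 1.03 (0.813–1.31). Of the FAP-like cells with an Il1rl1 UMI, 21.2% in vehicle bulk had an Il1rap UMI, as did 21.2% of those without Il1rl1, and in LNP-CRISPR bulk these shares were 15.7% and 21.9%.

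**Figure D3:**
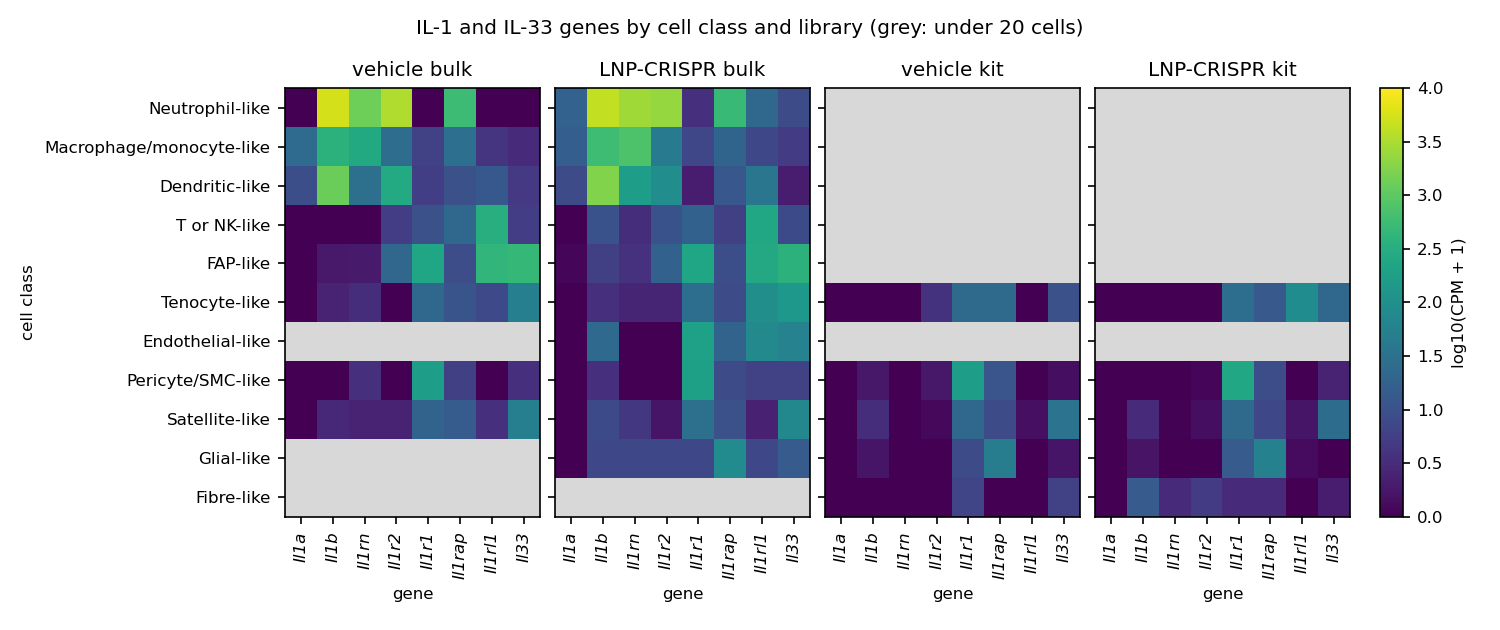
Level of each gene (columns, colour is log10 of CPM plus 1) by cell class (rows) in the 4 libraries (panels), with grey for classes under 20 cells. The brightest tiles are Il1b, Il1rn and Il1r2 in neutrophil-like cells of the bulk libraries, and Il33, Il1rl1 and Il1r1 are bright in FAP-like cells.

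Il33, the alarmin gene, was highest in FAP-like cells, at 468 CPM (459–477) in vehicle bulk and 377 CPM (367–387) in LNP-CRISPR bulk. Its receptor gene Il1rl1 was at 425 CPM (416–433) and 256 CPM (248–264) in FAP-like cells. That was the highest level in vehicle bulk, while the LNP-CRISPR interval lies within that of T or NK-like cells, 240 CPM (196–291), and the highest class was the same in 6 of 8 settings in each bulk library. The ratios were 0.806 (0.7801–0.833) for Il33 and 0.603 (0.581–0.626) for Il1rl1. When each cell was thinned to 1000 UMIs the ratios were 1.06 for Il33, which turns its direction, and 0.888 for Il1rl1. The share of cells with an Il1rl1 UMI was 12.1% and 9.81% after thinning and 31.9% and 28.6% before. In the macrophage or monocyte-like cells of LNP-CRISPR bulk, at a median of 15286 UMIs, 5.75% had an Il33 UMI and 9.20% an Il1rl1 UMI, against 75.7% and 28.6% of FAP-like cells at 30250 UMIs.

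The 2 genes were distributed differently among FAP-like cells. Il33 UMIs were in 74.4% of vehicle cells, and the top 10% of cells held 62.4% of them. Il1rl1 UMIs were in 31.9% of vehicle cells, and the top 10% held 85.8%, with up to 385 UMIs in 1 cell. In LNP-CRISPR bulk the top 10% of cells held 61.1% of the Il33 UMIs and 87.8% of the Il1rl1 UMIs, with up to 489 Il1rl1 UMIs in 1 cell. Cells with at least 10 Il1rl1 UMIs were 114 of 664 in vehicle and 57 of 423 in LNP-CRISPR bulk, or 17.2% and 13.5%.

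**Figure D4:**
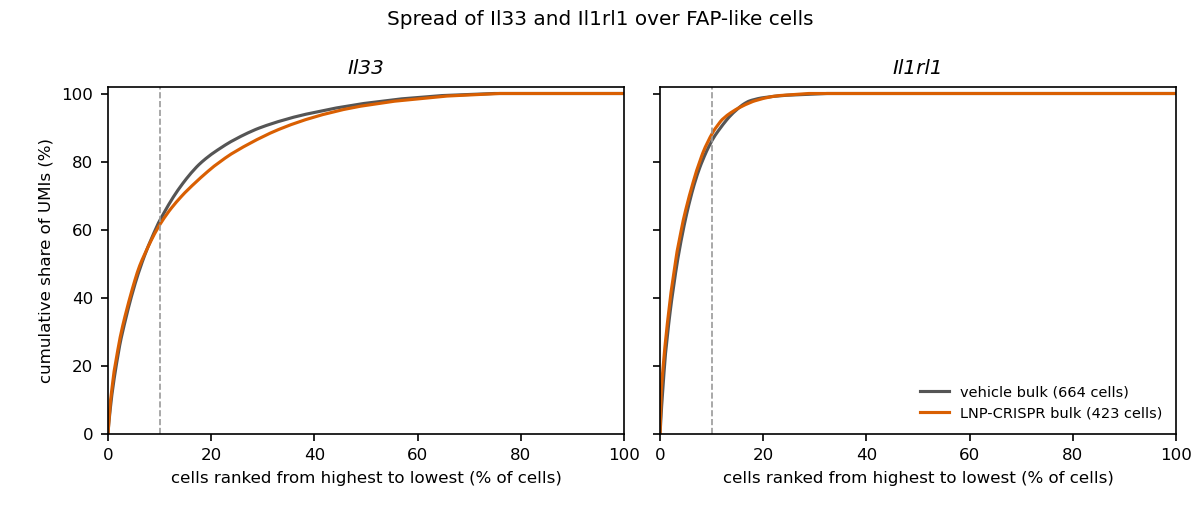
Cumulative share of Il33 and Il1rl1 UMIs (vertical axis, percent) over FAP-like cells ranked from the highest count to the lowest (horizontal axis, percent of cells) in vehicle bulk (grey, 664 cells) and LNP-CRISPR bulk (orange, 423 cells), with a dashed line at 10% of cells. At that line the Il1rl1 curves reach 85.8% and 87.8%, and the Il33 curves reach 62.4% and 61.1%.

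Il1rl1 differed between the 2 large FAP-like clusters, which were formed without it. In cluster 1, led by the chemokine genes Cxcl5 and Ccl2 and by Pi16, a marker of adventitial progenitors, it was at 698 CPM (684–713) in vehicle and 422 CPM (408–436) in LNP-CRISPR cells. In cluster 6, led by Gdf10 and Pdgfra, it was at 67.8 CPM (62.7–73.3) and 30.1 CPM (25.9–34.8). A UMI was present in 59.7% and 51.6% of the cells of cluster 1 and in 13.3% and 11.0% of those of cluster 6. Il33 was likewise higher in cluster 1, at 666 CPM (652–680.3) in vehicle and 479 CPM (465–494) in LNP-CRISPR cells, than in cluster 6, at 204 CPM (195–214) and 231 CPM (219–243). The lower Il33 level of LNP-CRISPR bulk was thus found in cluster 1 and not in cluster 6, whose ratio was 1.13, while Il1rl1 was lower in both, with ratios of 0.604 and 0.444. A small FAP-like cluster, cluster 7, had 23 vehicle cells with Il33 at 317 CPM (253–392) and no Il1rl1 UMI, which allows a share of cells with a UMI of up to 13.0%.

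Receptor and ligand overlapped in part. In vehicle bulk, FAP-like cells with at least 10 Il1rl1 UMIs had Il33 at 877 CPM (854–900.5), and those without an Il1rl1 UMI had 296 CPM (287–306). In LNP-CRISPR bulk these levels were 498 CPM (474–523) and 369 CPM (356–382). The Il1rl1-rich cells were deeper, with medians of 53519.5 and 25220.5 UMIs per cell in vehicle bulk, and 91.2% of them were in cluster 1. Within cluster 1, the Il33 levels were 922 CPM (898–947) and 509 CPM (487–531) in vehicle bulk. In LNP-CRISPR bulk they were 504 CPM (479–530) and 592 CPM (566–618), so the order was opposite in the 2 libraries. Pi16 was lower in the Il1rl1-rich cells of cluster 1 than in its cells without an Il1rl1 UMI. It was at 198 and 798 CPM in vehicle bulk and at 125.5 and 629 CPM in LNP-CRISPR bulk. The FAP marker Dpp4 was at 24.2 and 72.9 CPM and at 18.1 and 75.0 CPM. Of the listed FAP markers Smoc2 was not lower, at 672 and 651 CPM and at 640 and 590 CPM.

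Tenocyte-like cells had both IL-33 genes at higher levels in LNP-CRISPR bulk, each from few cells. Il33 was at 51.5 CPM (42.4–62.1) in 16 of 81 vehicle cells and at 137 CPM (123–152) in 24 of 111 LNP-CRISPR cells, a ratio of 2.65 (2.14–3.32). Il1rl1 was at 6.50 CPM (3.55–10.9) in 7 cells and at 93.8 CPM (82.1–107) in 13 cells, a ratio of 14.4 (8.43–26.8) that ran from 3.35 to 34.0 over the settings tried. Of the 231 LNP-CRISPR Il1rl1 UMIs 96 were in 1 cell, and without the highest cell of each library the levels were 2.82 and 55.8 CPM. With the kit preparation Il1rl1 had 0 UMIs in 25 vehicle tenocyte-like cells, which allows a share of cells with a UMI of up to 12%, and 67 UMIs in 5 of 40 LNP-CRISPR cells, 42 of them in 1 cell. A difference in that share was not detectable with these numbers of cells. The summed list of 10 FAP markers was lower in LNP-CRISPR tenocyte-like cells of bulk, at 9872 CPM in vehicle and 7635 CPM in LNP-CRISPR cells (10 of 10 present). With the kit it was higher there, at 3593 CPM (9 of 10 present) and 5009 CPM (10 of 10 present), and its part in these results was not tested.

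In the T or NK-like class Il1rl1 was found in a minority of cells. The level was 317 CPM (248–398) in vehicle bulk, from 9 of 33 cells, and 240 CPM (196–291) in LNP-CRISPR bulk, from 11 of 53 cells. The intervals overlap. In LNP-CRISPR bulk 43 of the 103 UMIs were in 1 cell, and in vehicle bulk 17 of 73. Satellite-like cells of the same libraries, given for comparison, had a UMI in 8.51% and 5.41% of cells. Their medians were 35926 and 24201 UMIs, against 6727 and 7936 in T or NK-like cells. The type 2 cytokine gene Il5 was found in 4 of the 9 and 7 of the 11 cells with Il1rl1 and in 0 of 24 and 0 of 42 of the others. Gata3, a factor of type 2 lymphocytes and many T cells, was in 7 and 8 of the cells with Il1rl1 and in 4 of 24 and 17 of 42 of the others. Among the other genes listed for group 2 innate lymphoid cells, Klrg1 was in 8 and 7 of the cells with Il1rl1. It was in 2 of 24 and 5 of 42 of the others. Rora was in 8 and 9 and in 7 and 25, Il7r in 8 and 9 and in 9 and 18, and Il13 in 1 and 1 and in 0 and 0. Foxp3, the factor of regulatory T cells, was in 2 and 0 of the cells with Il1rl1 and in 0 and 1 of the others. Of the other genes listed for regulatory T cells, Il2ra was in 7 of 9 and 7 of 11 cells with Il1rl1 and in 2 of 24 and 7 of 42 of the others. Ctla4 was in 3 and 1 of the cells with Il1rl1 and in 2 and 12 of the others, and Ikzf2 was in 4 and 6 and in 5 and 18. Activated T cells and innate lymphoid cells can carry Il2ra as well. Mast cells can carry ST2 as well. Their protease genes Cpa3, Mcpt4 and Tpsb2 each had UMIs in 1 of the 11 LNP-CRISPR cells with Il1rl1. They had none in the 9 vehicle cells. Cma1 was in 1 of each and in 4 vehicle and 2 LNP-CRISPR cells without Il1rl1. Summed over the 11 cells, Cpa3, Mcpt4, Tpsb2 and Cma1 were at 1199, 2484, 1825 and 1944 CPM. Cma1 was at 66.7 CPM in the 9 vehicle cells. Whether the class held a mast cell was not tested. Kit, which mast cells share with some innate lymphoid cells, was in 4 and 7 of the cells with Il1rl1 and in 0 and 2 of the others.

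Endothelial-like cells of LNP-CRISPR bulk, at a median of 2353 UMIs, had Il1rl1 at 75.8 CPM (44.1–121) in 11 of 36 cells and Il33 at 58.0 CPM (30.9–99.1) in 6 of 36. Neutrophil-like cells of that library, at a similar median of 2451 UMIs, had a UMI of Il1rl1 in 4.43% and of Il33 in 1.90% of 158 cells, against 30.6% and 16.7% of the endothelial-like cells. The summed FAP list was at 1614 CPM in the endothelial-like cells (10 of 10 present), and its part in these values was not tested. Vehicle bulk had 18 such cells, too few for a level.

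Il33 was also present in satellite-like cells of the kit libraries, at 32.2 CPM (29.8–34.9) in vehicle and 25.2 CPM (23.3–27.3) in LNP-CRISPR cells, a ratio of 0.783 (0.700–0.876). It was carried by 75 of 517 and 97 of 591 cells, and the top 10% of cells held 96.0% and 92.9% of the UMIs. The clusters with cell cycle genes among their leading genes held most of it. In cluster 16, UMIs were in 39 of 105 vehicle and 39 of 145 LNP-CRISPR cells, at 46.2 CPM (41.5–51.3) and 34.9 CPM (31.2–39.0). In cluster 19, they were in 29 of 110 and 46 of 125 cells, at 29.0 CPM (24.9–33.6) and 33.2 CPM (29.5–37.2).

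The other 2 satellite-like clusters had Il33 in few cells. In cluster 12, whose leading genes include the stem cell factor genes Pax7 and Myf5, it was found in 6 of 247 vehicle cells at 25.9 CPM (20.7–32.0) and in 10 of 252 LNP-CRISPR cells at 4.86 CPM (2.93–7.60). In cluster 20, led by genes of differentiation such as Myog, Mymk and Myh3, it was found in 1 of 55 and 2 of 69 cells, at 0.486 and 1.21 CPM. Clusters 16 and 19 were deeper, with medians of 54962.5 to 78998 UMIs per cell against 13135 to 13930.5 in cluster 12. The summed FAP list in satellite-like cells was at 154 CPM in vehicle kit and 112 CPM in LNP-CRISPR kit, and its part in the Il33 values was not tested. In the bulk libraries 47 and 37 satellite-like cells had Il33 at 52.8 CPM (43.4–63.7) and 72.4 CPM (59.3–87.6), with 61 of the 106 LNP-CRISPR UMIs in 1 cell.

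Over the classes with at least 50 cells in both libraries of an isolation, 23 pairs of gene and class in bulk and 9 in the kit libraries had at least 20 UMIs. In bulk, 8 of the 23 pairs were at least 2-fold higher in LNP-CRISPR, against 2.17% of all gene and class pairs, and 1 was at least 2-fold lower, against 2.97%. In the kit libraries 0 of the 9 pairs were higher, against 3.09%, and 0 were lower, against 1.89%. No test with replicates lies behind these counts, and the classes share libraries.

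The 8 higher pairs were Il1rn in macrophage or monocyte-like, dendritic-like and FAP-like cells, Il1b in FAP-like cells, Il33 in tenocyte-like cells and Il1rl1 in tenocyte-like, dendritic-like and macrophage or monocyte-like cells. The lower pair was Il1r2 in dendritic-like cells. Several rest on few molecules. The Il1b and Il1rn levels of FAP-like cells were under 5 CPM in both libraries, as were most of those of tenocyte-like and satellite-like cells. Il1rl1 in dendritic-like cells had 13 UMIs in vehicle and 36 in LNP-CRISPR bulk, a ratio of 3.19 (1.65–6.56), and 20 of the 36 were in 1 cell. Il1rl1 in macrophage or monocyte-like cells had 9 and 18 UMIs, and its interval of 0.910 to 5.39 includes 1. The median log2 ratio was 0.38 over the 23 bulk pairs and 0.12 over the 9 kit pairs. Over all genes, the medians of the compared bulk classes lay between -0.05 and -0.04. Those of the kit classes with measured pairs lay between -0.09 and 0.02. Fibre-like cells, with 0 measured pairs, had a median over all genes of 0.19.

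**Figure D5:**
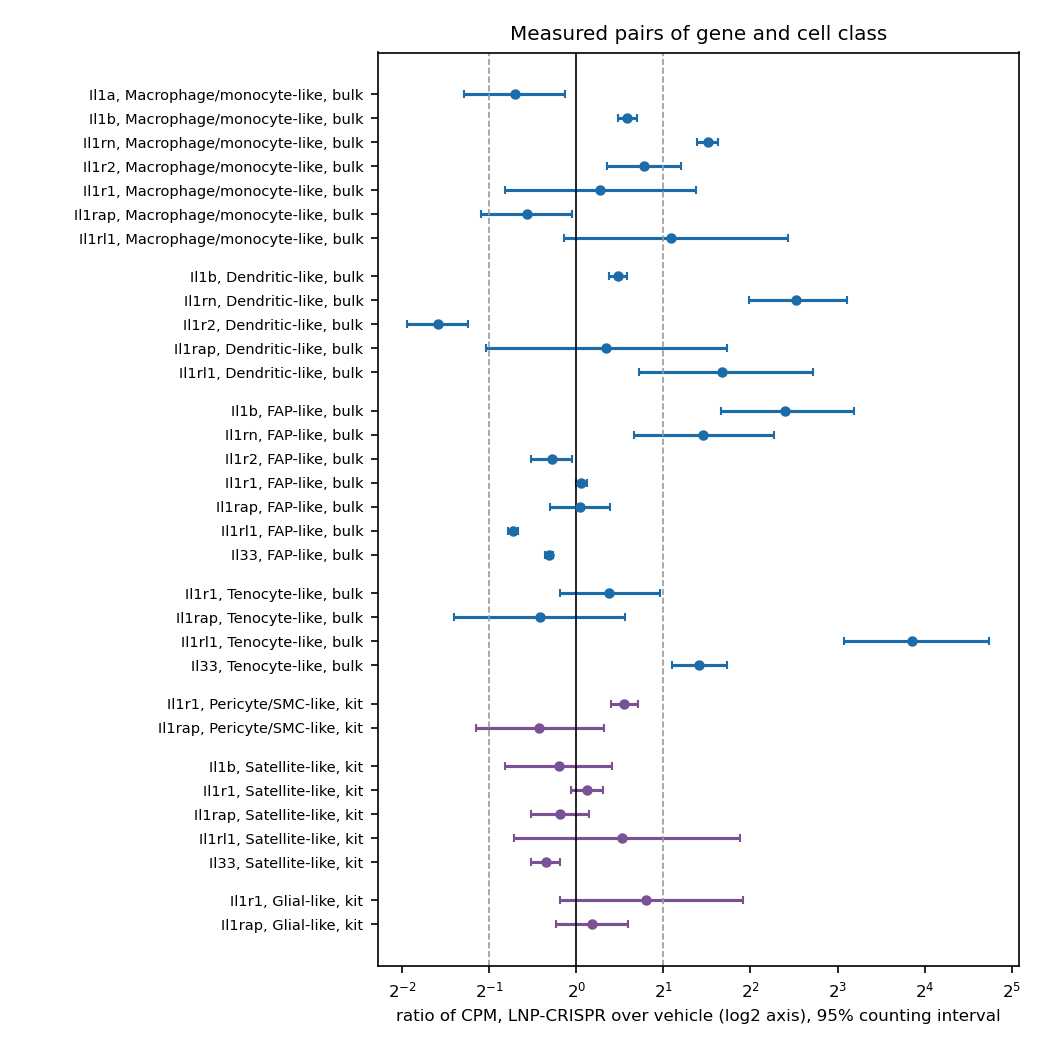
Ratio of CPM in LNP-CRISPR over vehicle (log2 axis) for each pair of gene and cell class with at least 20 UMIs, bulk in blue and kit in purple, with 95% counting intervals, a solid line at 1 and dashed lines at 0.5 and 2. The highest point is Il1rl1 in tenocyte-like cells at 14.4, the lowest is Il1r2 in dendritic-like cells at 0.333, and all kit points lie between the dashed lines.

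Within LNP-CRISPR bulk, cells with at least 4 Cas9 UMIs were set beside cells with none, all from 1 library. In FAP-like cells, 289 with Cas9 and 37 without, Il33 was at 376 CPM (364–388) and 414 CPM (376–455), and Il1r1 was at 254 CPM (244–264) and 193 CPM (167–222). Il1rl1 was at 185 CPM (177–194) in cells with Cas9 and 872 CPM (816–930.3) in cells without. One cell without Cas9 held 489 of the 908 UMIs, and without the highest cell of each kind the Il1rl1 levels were 170 and 417 CPM. The share of cells with an Il1rl1 UMI was 28.0% and 27.0%. Median depth was 29929 and 26670 UMIs per cell. Within cluster 1, with 125 and 15 cells, Il1rl1 was at 313 CPM with Cas9 and 1467 CPM without, the latter including the cell with 489 UMIs. Il33 was at 456 and 616 CPM there. Within cluster 6, with 162 and 18 cells, Il1rl1 was at 27.5 and 8.07 CPM and Il33 at 277 and 69.9 CPM. For both genes the order was thus opposite in the 2 clusters.

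In macrophage or monocyte-like cells, 72 with Cas9 and 49 without, Il1rn was at 743 CPM (696–793) and 723 CPM (661–789), whose intervals overlap. The order was opposite within the 2 clusters. Il1rn was at 679 CPM with Cas9 and 1111 CPM without in cluster 4, and at 1222 and 314 CPM in cluster 5. Il1b was at 241 CPM (215–270.2) and 447 CPM (399–500.2), and Il1r2 at 21.5 CPM (14.2–31.3) and 79.4 CPM (59.8–103). Cluster 4 made up 81.9% of the cells with Cas9 and 46.9% of those without. Within cluster 4 Il1b was at 246 CPM with Cas9 and 56.3 CPM without, and within cluster 5, with 13 and 26 cells, it was at 209 and 860 CPM, so the order was opposite in the 2 clusters. Il1r2 was at 8.13 and 45.0 CPM in cluster 4 and at 122 and 116 CPM in cluster 5. In LNP-CRISPR kit, pericyte or smooth muscle-like cells had Il1r1 at 265 CPM (226.5–308) with Cas9 and 247 CPM (229.5–266) without. Satellite-like cells had Il33 at 25.5 CPM (21.1–30.5) with Cas9 and 27.0 CPM (24.4–29.8) without. In both classes the intervals overlap. The satellite-like cells, 92 with Cas9 and 364 without, differed in depth, with medians of 45451.5 and 22545.5 UMIs per cell. The medians of the pericyte or smooth muscle-like cells were 21605 and 17098 UMIs.

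A list of 36 other genes of the pathway, covering the IL-18 and IL-36 branches of the family, the inflammasome and proteases that process IL-1 beta, the signalling chain from MYD88 to NF-kB and type 2 outputs of ST2, was counted in the same way, and 32 were among the features. In tenocyte-like cells 5 of the 13 measured were at least 2-fold higher in LNP-CRISPR bulk, against 2.15% of all genes, and 0 were lower, against 3.21%. They were Casp4, an inflammatory caspase, at 22.3 and 62.1 CPM, the signalling brake Irak3 at 14.4 and 28.8 CPM, the kinase adaptor Tab1 at 3.25 and 7.31 CPM, the NF-kB cofactor Nfkbiz at 73.8 and 148 CPM, and the mRNA-degrading Zc3h12a at 7.89 and 18.7 CPM. The interval of the Tab1 ratio, 0.896 to 6.37, includes 1. In dendritic-like cells 4 of 18 were higher, against 4.14%, and 0 lower, against 3.97%. They were Irak3, Traf6, Map3k7 and Areg, the last with 63 UMIs in 3 LNP-CRISPR cells and 0 in vehicle, 43 of the 63 in 1 cell. The interval of the Irak3 ratio, 0.918 to 5.54, includes 1.

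In FAP-like cells 1 of 24 was higher, against 1.53%, and 1 lower, against 2.24%. The inflammasome sensor gene Nlrp3 had 6 and 14 UMIs, and Areg, which encodes the repair factor amphiregulin, was at 18.5 CPM in vehicle and 3.22 CPM in LNP-CRISPR cells, a ratio of 0.175 (0.127–0.236). In macrophage or monocyte-like cells 1 of 22 genes was lower, against 3.02% of all genes, with 0 higher against 1.65%. It was Areg, at 11.5 and 4.33 CPM, from few cells. Vehicle had 34 UMIs in 7 cells, 18 of them in 1 cell, and LNP-CRISPR had 12 in 4 cells, 9 of them in 1 cell. In the kit libraries 0 of 21 genes passed 2-fold in satellite-like cells, against 1.03% higher and 1.54% lower, and 0 of 12 in glial-like cells, against 2.51% and 1.05%. In pericyte or smooth muscle-like cells 1 of 17 was higher, against 1.79%, and 0 lower, against 3.29%. It was Casp4, at 38.9 and 78.5 CPM. In fibre-like cells 3 of 5 were higher, Pycard, Irak1 and Nfkbiz, where 12.3% of all genes were higher and 1.58% lower.

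By UMIs, which are not scaled by length, Nfkbiz was among the 3 most counted list genes in all compared classes but fibre-like cells. It was joined by Casp4 and Irak3 in FAP-like cells and by Nlrp3 and Pycard in macrophage or monocyte-like and dendritic-like cells. In FAP-like cells it was at 305 CPM in vehicle and 407 CPM in LNP-CRISPR cells, a ratio of 1.33 (1.29–1.38), in pericyte or smooth muscle-like cells of the kit libraries at 573 and 826 CPM, and in satellite-like cells at 71.2 and 101.7 CPM. In macrophage or monocyte-like cells it was at 209.6 and 163 CPM, a ratio of 0.777 (0.686–0.878).

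Likeness of pattern was measured as Pearson's r of log2 of CPM plus 1 over 18 class and library units with at least 50 cells, among 13694 genes. The units share libraries and depth, so r is a description. Closest to Il1b were Fgr, a myeloid kinase gene, Alox5ap, of leukotriene synthesis, and Spi1, the myeloid factor gene, with r from 0.978 to 0.984. Closest to Il1rn were the chemokine receptor gene Ccr1, the lectin gene Clec4d and the cytokine gene Osm, with r from 0.982 to 0.987. Closest to Il1r2 were Sp140, Syk and Mctp1, with r from 0.931 to 0.941, and closest to Il1a were Gm21188, Gm9733 and Tlr8.

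For the stromal genes, those closest to Il33 were Igfbp3, Tpbg and Htra3, with r from 0.945 to 0.959. Closest to Il1rl1 were Ly6a, which encodes the progenitor marker SCA1, at 0.954, then Ptx3 at 0.866 and the matrix gene Lum at 0.863. Closest to Il1r1 were Stmnd1, Hdx and Fam13c, with r from 0.931 to 0.946, and closest to Il1rap were Fbxl5, Usp32 and Kbtbd7, with r from 0.919 to 0.952. Among the 8 genes themselves, Il1a with Il1rn had an r of 0.951, Il1b with Il1rn 0.939, and Il33 with Il1rl1 0.666.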

How the data were processed

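Single-cell RNA was captured with the 10x Chromium 3′ kit, version 3.1, per the labels' protocols. The deposited values are raw UMI counts per gene and cell barcode, made by the authors with Cell Ranger against mm10. The submitters' processing notes name version 7.0.1 and the matrix file headers name 5.0.1, and strand use and filters on barcodes are not given in the sources used here. Positions are those of GENCODE release 21 for mouse (GRCm38), which matched 32158 of the 32286 features.

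From the counts, scanpy 1.11.5 was used to keep cells in which 200 or more genes were detected and mitochondrial UMIs made up no more than 20%. Scrublet called 0.260% to 0.496% of the cells doublets at an expected rate of 5%, so most doublets probably remain. Cells were clustered on 2000 variable genes without the 8 genes (30 components, 15 neighbours, Leiden resolution 1.0), and all but 4 of the 23 clusters were named from 16 marker lists, each name resting on at least 3 enriched markers. The names are rebuilt here and are not the authors'. UMIs were summed per class and library. Levels have exact Poisson intervals, and ratios have exact binomial intervals conditional on the total, both at 95%. Ratios are given for classes with at least 50 cells in both libraries and genes with at least 20 UMIs over both, levels for classes with at least 20 cells. A floor of 3 counts stands for 0. Expected shares at 1000 UMIs per cell were used to set depth aside. The ratio step was tested on simulated data.

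The 8 genes, the marker and pathway lists and the rules were chosen with earlier results of these data known. Named genes are the 8 genes, for each the 3 genes of closest pattern (at least 100 UMIs), and the pathway genes past 2-fold or most counted in a class. Endothelial, lymphocyte and unnamed groups of cells, Cas9 splits and cells with high Il1rl1 counts were described as values only. Alternatives were the highest cell left out, cells weighted equally, thinning, a stricter cell filter, doublets kept, Leiden resolution 2.0, the 8 genes used in clustering, mitochondrial UMIs in the total and UMI minimums of 1 and 50. Ratios within clusters and Cas9 values without the highest cell were added after seeing the data.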

Additional observations from a re-analysis of the deposited data

Results flagged for a closer look

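The ratio of LNP-CRISPR over vehicle lay on opposite sides of 1 in different cell classes for 3 genes. No difference between classes was tested, since there was 1 library per group. For Il1r2 it was 1.71 in macrophage or monocyte-like and 0.333 in dendritic-like cells. For Il33 it was 2.65 in tenocyte-like and 0.806 in FAP-like cells, and for Il1rl1 it was 14.4 in tenocyte-like and 0.603 in FAP-like cells. The tenocyte-like Il1rl1 value rests on 13 LNP-CRISPR cells, and the macrophage Il1r2 value was 0.598 with the stricter cell filter, where no dendritic-like class was formed and the class held another mix of cells.

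Cells left unnamed also carried the genes. Cluster 22 held 22 cells of LNP-CRISPR bulk and 0 of vehicle bulk, at a median of 1230.5 UMIs, and its leading genes were Apod, Gpc3 and Saa1. Its levels were 1738 CPM for Il1rn (51 UMIs), 613.5 CPM for Il33 (18 UMIs), 511 CPM for Il1r1 (15 UMIs), 238.6 CPM for Il1b (7 UMIs) and 136 CPM for Il1r2 (4 UMIs). Il1rn was present in 20 of the 22 cells and Il33 in 11.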

How the results depend on the processing

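Of the 9 pairs of gene and class at least 2-fold apart, 8 stayed on the same side of 1 under every alternative that gave a value and 6 stayed at least 2-fold apart. The exception in direction was Il1rl1 in dendritic-like cells, whose ratio was 0 after thinning to 1000 UMIs, where few UMIs are left. In bulk the count of higher pairs was 1 after thinning. The count of lower pairs in bulk was 2 with cells weighted equally, 0 with the stricter filter, where no dendritic-like class was formed and the lower pair had no value, 2 with called doublets kept and 3 with a minimum of 1 UMI. In the kit libraries the count of higher pairs was 2 with cells weighted equally, 1 after thinning and 7 with a minimum of 1 UMI. The count of lower pairs there was 1 with doublets kept, 1 at Leiden resolution 2.0 and 5 with a minimum of 1 UMI. The cause was not tested, except that a minimum of 1 UMI admits more pairs and thinning leaves fewer UMIs. The class with the highest level was the same under all settings in 18 of 32 combinations of gene and library. No paired analysis was possible because each group had 1 library, and for the same reason no library could be left out. In fibre-like cells, at medians of 1664 and 1652 UMIs, 0 of the 8 genes reached 20 UMIs.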
